A study of Homo sapiens with 9 samples.

Results

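Cytosolic DNA sensing was followed through 8 genes: the DNA sensors CGAS and IFI16, the adaptor STING1, the kinase TBK1, the transcription factor IRF3, and the enzymes TREX1, SAMHD1 and ENPP1. They were taken by symbol from the 60617 Ensembl genes in the count tables, each symbol matched 1 identifier, and all 8 passed the filter on low counts. Every library came from PC-3, a human prostate cancer cell line in long use, after 5 days of treatment. The 3 control libraries received vehicle, the 3 decitabine libraries received 1 µM of decitabine, an inhibitor of DNA methyltransferases, and the 3 combination libraries received 1 µM of decitabine with 200 µM of S-adenosylmethionine (SAM), the principal methyl donor of the cell. Libraries of cells given SAM alone were not analysed here. The comparisons ask how the DNA sensing genes stood after decitabine, and how they stood when the methyl donor was given with it. The labels do not say whether the 3 libraries of a group came from separate cultures, so that p-values measure only the spread between these libraries, which may be technical.

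The enzyme cGAS binds double-stranded DNA in the cytosol and makes the second messenger cGAMP, which binds STING on the endoplasmic reticulum. STING then moves to the Golgi and brings the kinase TBK1 to the transcription factor IRF3, which enters the nucleus and switches on type I interferon genes. TREX1 is an exonuclease that degrades DNA before cGAS meets it, SAMHD1 lowers the pool of deoxynucleotides, and ENPP1 cleaves cGAMP outside the cell. Several genes of the pathway are themselves induced by interferon. The values below are RNA levels and say nothing of the activity of the proteins.

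Totals lay between 21934307 and 22489684 estimated counts per library. Levels are given as CPM, counts scaled to the size of the library, after TMM scaling, which corrects for libraries in which a few genes take much of the total. The TMM factors ran from 0.895 to 0.902 for controls, 1.058 to 1.078 for decitabine and 1.033 to 1.07 for the combination. Scaling by library size alone moved the log2 fold change of the median gene from 0.035 to 0.281 under decitabine and from 0.048 to 0.268 under the combination, and small changes against control depend on this choice. The epithelial keratin genes KRT8, KRT18 and KRT19 had at least 2156 counts in every library. Other epithelial markers were lower, with 321 to 364 counts of EPCAM and 36.5 to 40 of CDH1 in the controls. CDH1 had 323 to 352 counts under decitabine and 349 to 413.9 under the combination. Among leukocyte markers, the T cell gene CD3E had 0 to 2 counts in any library and the pan-leukocyte gene PTPRC had 1 to 2 in the controls, 21 to 30 under decitabine and 13 to 23.1 under the combination. CD14 was likewise higher in both treatments, with 3 to 4, 14 to 18 and 14 to 24 counts, and LYZ stayed at 5 or fewer. Their part in the results was not tested. In bulk samples, fewer cells of a type and less RNA per cell cannot be told apart.

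Combination replicate 3 stood apart from the other two combination libraries. It was the highest of the 3 for 6 of the 8 genes (75%), against 38.1% of all 18532 genes tested. The changes that it moved most are also given without it.

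Reference promoters, from 250 bases before to 50 bases after the start of the gene, were held by the RefSeq table (GRCh38.p14) for IFI16, with 2 starts, TREX1, TBK1, SAMHD1 and ENPP1. They are shown because decitabine blocks the enzymes that methylate CpG sites, and the printed stretches leave out every base that lies in an annotated exon. CpG sites are in capitals. The first is the IFI16 promoter at chr1:159009657-159009891 on the plus strand, the second the SAMHD1 promoter at chr20:36951894-36951958 on the minus strand, and the third the ENPP1 promoter at chr6:131807770-131808015 on the plus strand.
IFI16: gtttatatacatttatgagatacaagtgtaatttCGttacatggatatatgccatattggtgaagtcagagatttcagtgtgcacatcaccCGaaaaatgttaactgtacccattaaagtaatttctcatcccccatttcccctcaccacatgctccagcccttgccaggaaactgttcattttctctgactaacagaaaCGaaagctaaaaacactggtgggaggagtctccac
SAMHD1: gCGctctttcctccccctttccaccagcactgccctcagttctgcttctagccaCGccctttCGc
ENPP1: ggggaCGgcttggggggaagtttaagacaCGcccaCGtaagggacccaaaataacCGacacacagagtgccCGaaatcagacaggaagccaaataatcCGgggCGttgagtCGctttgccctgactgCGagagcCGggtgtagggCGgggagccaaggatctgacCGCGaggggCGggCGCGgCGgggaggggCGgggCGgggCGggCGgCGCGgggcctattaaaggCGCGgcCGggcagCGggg

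In the full windows of 300 bases, the IFI16 promoters held 1 and 3 CpG sites and the TREX1 promoter held 3. The SAMHD1 promoter held 22, the TBK1 promoter 35 and the ENPP1 promoter 37, where the median of 35116 promoters was 14. At most 3 CpG sites were found in 24.5% of all promoters, and at most 37 in 90.1%. The interferon-stimulated response element, taken as GAAA blocks 2 bases apart, and the motif TTCNNNGAA, the form of a STAT site, were searched on both strands and found in none of the members' promoters, where 3.57% and 7.66% of all promoters hold them. A shorter form of the former, GAAANGAAA, chosen after the sequences were seen, was found in 1 of the IFI16 promoters and in 3.12% of all promoters. The methylation of these windows was not measured in the count tables.

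Across the 8 genes, decitabine raised 4 and lowered 1. The genes raised were IFI16, IRF3, TREX1 and SAMHD1, and the gene lowered was ENPP1, whereas 36.3% of all genes tested were called higher and 32.5% lower. The members' share of calls was 5 of 8, close to the 68.8% called among all genes. The combination treatment against control raised CGAS, TBK1, IRF3 and SAMHD1 and lowered STING1, again 5 of 8, where 67.2% of all genes were called, 35.9% higher and 31.3% lower. Between the treatments the picture was different: IFI16, STING1, TREX1 and SAMHD1 were lower under the combination than under decitabine and no member was higher, in a comparison in which 15.7% of all genes were called, 7.67% higher and 8.02% lower. Groups that did not overlap gave like counts, with 4 members wholly higher and 1 wholly lower under decitabine (38.1% and 34.8% of all genes), 4 and 2 under the combination (38% and 33.6%), and 1 and 4 between the treatments (17.2% and 16.8%). The call for TREX1 between the treatments was lost when its counts were summed with those of ATRIP, a gene whose exons cover all of those of TREX1. Called means a Benjamini-Hochberg adjusted p below 0.05 in edgeR's quasi-likelihood test over 18532 genes. The 3 comparisons share libraries and are not independent of each other.

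**Figure D1:**
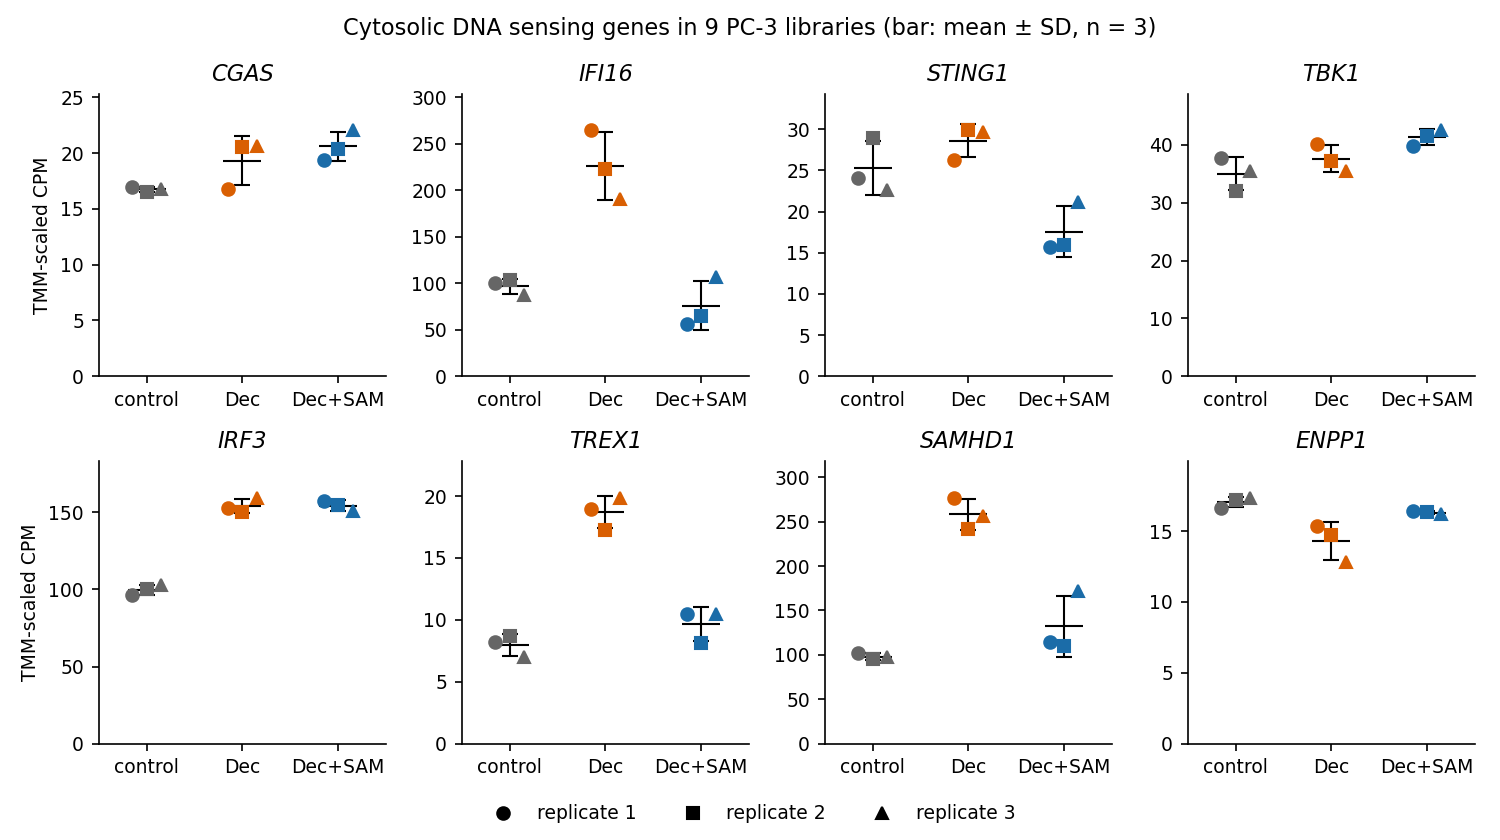
TMM-scaled CPM (linear axis from 0) of the 8 genes in each of the 9 libraries, with symbols for replicates 1 to 3 and bars for the mean ± SD of each group (n = 3). TREX1, SAMHD1 and IFI16 lie highest in the 3 decitabine libraries, IRF3 lies above the controls in both treatments, and STING1 is lowest under the combination.

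CGAS encodes the enzyme that senses DNA. It measured 17.0, 16.6 and 16.8 CPM in the controls, 16.8, 20.5 and 20.6 under decitabine and 19.4, 20.4 and 22.1 under the combination. The combination libraries were all above the controls, whereas decitabine replicate 1 fell within the control range. The log2 fold change was 0.20 ± 0.10 (SE) under decitabine, which did not pass the test (adjusted p = 0.082), and 0.30 ± 0.10 under the combination, which did (adjusted p = 0.016). The latter call was lost without combination replicate 3 (0.24, adjusted p = 0.065) and without control replicate 2 (0.28, adjusted p = 0.056). Without decitabine replicate 1 the change under decitabine was called (0.29, adjusted p = 0.017). The exons of CGAS (GENCODE 44 on GRCh38, chr6:73413515-73452297, minus strand) share 180 of 4174 bases with DDX43 on the other strand, which had 0 counts in the controls, 115 to 179 under decitabine and 84 to 121 under the combination. The strand setting of the counting is not given in the sources used here, and without it reads of genes that overlap on opposite strands cannot be told apart.

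IFI16 encodes an interferon-inducible protein that binds DNA and has been described as a partner of the STING pathway. It measured 99.9, 103 and 86.9 CPM in the controls, 264.6, 223.1 and 190.8 under decitabine and 56.6, 65.1 and 106.4 under the combination. The decitabine libraries were all above every other library, and combination replicate 3 was the only combination library above the controls. Its log2 fold change was 1.23 ± 0.24 under decitabine (adjusted p = 0.0026) and -1.57 ± 0.24 between the treatments (adjusted p = 0.0075). Against control, the combination treatment gave -0.34 ± 0.24 and did not pass the test (adjusted p = 0.24). Without combination replicate 3, this change was -0.67 and was called (adjusted p = 0.00096), and that between the treatments was -1.89.

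STING1 encodes the adaptor that binds cGAMP. It measured 24.1, 29.0 and 22.7 CPM in the controls, 26.3, 29.9 and 29.6 under decitabine and 15.6, 15.9 and 21.1 under the combination. Control and decitabine libraries overlapped, and all 3 combination libraries lay below both groups. Decitabine gave a log2 fold change of 0.18 ± 0.12 and did not pass the test (adjusted p = 0.21). Under the combination it was -0.52 ± 0.13 against control (adjusted p = 0.002) and -0.70 ± 0.12 against decitabine (adjusted p = 0.003). STING1 was thus the only member called lower than in the controls after the combination treatment. Without combination replicate 3, it was -0.68 against control and -0.86 against decitabine. Scaled by library size alone, the fall against control was -0.30 and the call was lost (adjusted p = 0.06), and the rise under decitabine was called (0.43, adjusted p = 0.0098).

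TBK1 encodes the kinase that STING recruits. It measured 37.7, 32.0 and 35.4 CPM in the controls, 40.1, 37.3 and 35.5 under decitabine and 39.8, 41.6 and 42.5 under the combination. The combination libraries lay above the controls, and the decitabine libraries overlapped both groups. The log2 fold change was 0.10 ± 0.08 under decitabine (adjusted p = 0.28), 0.24 ± 0.08 under the combination (adjusted p = 0.02) and 0.13 ± 0.08 between the treatments (adjusted p = 0.29), so that 1 of the 3 passed. That call was lost without control replicate 2 (0.17), combination replicate 2 (0.23) or combination replicate 3 (0.21), and without the filter on low counts (0.21, adjusted p = 0.071). With library size alone, the change under decitabine was 0.35 and was called (adjusted p = 0.002).

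IRF3 encodes the transcription factor that TBK1 phosphorylates. It measured 96.4, 100.3 and 102.9 CPM in the controls, 152.8, 150.5 and 159.4 under decitabine and 157.5, 154.8 and 150.9 under the combination. Every treated library was above every control, and the 2 treatments overlapped. Both gave a log2 fold change of 0.63 ± 0.06, with an adjusted p of 7.9e-07 for decitabine and 8.2e-07 for the combination treatment, and 0.00 ± 0.06 between them (adjusted p = 0.99). IRF3 kept its call against control under all alternatives run, from 0.59 to 0.87 under decitabine and from 0.60 to 0.85 under the combination. Its exons share 734 of 3794 bases with BCL2L12 on the opposite strand, whose own log2 fold changes were -0.13, 0.26 and 0.39 in the 3 comparisons.

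TREX1 encodes the main exonuclease that removes DNA from the cytosol. It measured 8.18, 8.70 and 6.99 CPM in the controls, 18.9, 17.3 and 19.9 under decitabine and 10.5, 8.10 and 10.5 under the combination. The decitabine libraries were all above every other library, and combination replicate 2 fell within the control range. The log2 fold change was 1.23 ± 0.13 under decitabine (adjusted p = 1e-06), 0.28 ± 0.13 under the combination (adjusted p = 0.073, not called) and -0.95 ± 0.12 between the treatments (adjusted p = 6e-04). Without combination replicate 2 the change against control was 0.39 and was called (adjusted p = 0.021), as it was with library size alone (0.50, adjusted p = 0.0043). Without combination replicate 3 the change against control was 0.22 (adjusted p = 0.2) and the difference between the treatments was -1.01.

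All 1448 exon bases of TREX1 (chr3:48465811-48467645, plus strand) also lie in exons of ATRIP on the same strand, a partner of the checkpoint kinase ATR, so that the split of estimated counts between the 2 genes is uncertain. ATRIP measured 25.4, 27.5 and 31.3 CPM in the controls, 26.9, 25.1 and 26.4 under decitabine and 33.6, 34.5 and 27.5 under the combination. Its log2 fold changes of -0.10, 0.18 and 0.28 did not pass the test (adjusted p = 0.40, 0.13 and 0.072). With the counts of both genes summed, an alternative chosen after the data were seen, the log2 fold change was 0.32 ± 0.08 under decitabine (adjusted p = 0.0036) and 0.21 ± 0.08 under the combination (adjusted p = 0.041). Between the treatments the sum gave -0.11 ± 0.08, and the call was lost (adjusted p = 0.39). ATRIP holds the larger part of the summed counts in every library.

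SAMHD1 encodes a deoxynucleotide triphosphohydrolase that is induced by interferon in many cells. It measured 102.1, 95.1 and 97.1 CPM in the controls, 276.8, 241.6 and 255.9 under decitabine and 114.7, 110.5 and 171.8 under the combination. The 3 groups did not overlap, under decitabine the highest. Its log2 fold change was 1.40 ± 0.15 under decitabine (adjusted p = 9.9e-06), 0.43 ± 0.15 under the combination (adjusted p = 0.022) and -0.96 ± 0.15 between the treatments (adjusted p = 0.0029). Combination replicate 3 carried much of the rise against control, which was 0.20 without it (adjusted p = 0.035), and the call was lost without control replicate 2 (0.40) or control replicate 3 (0.42). Without combination replicate 3, the difference between the treatments was -1.20. Its exons share 1068 of 10835 bases with TLDC2 on the other strand, which had 2 to 9 counts in the controls, 21 to 28 after decitabine and 26 to 39 after the combination.

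ENPP1 encodes a membrane phosphodiesterase that hydrolyses extracellular cGAMP. It measured 16.6, 17.2 and 17.3 CPM in the controls, 15.4, 14.7 and 12.8 under decitabine and 16.4, 16.3 and 16.2 under the combination. The decitabine libraries were the lowest 3 of the 9. The log2 fold change was -0.25 ± 0.10 under decitabine (adjusted p = 0.028), -0.06 ± 0.09 under the combination (adjusted p = 0.56) and 0.19 ± 0.09 between the treatments (adjusted p = 0.19). The call under decitabine was lost with library size alone (-0.01, adjusted p = 0.94), with DESeq2 (-0.23, adjusted p = 0.059) and with only the 6 libraries compared (-0.23, adjusted p = 0.063). It was also lost without control replicate 2 (-0.26), control replicate 3 (-0.25) or decitabine replicate 3 (-0.18).

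**Figure D2:**
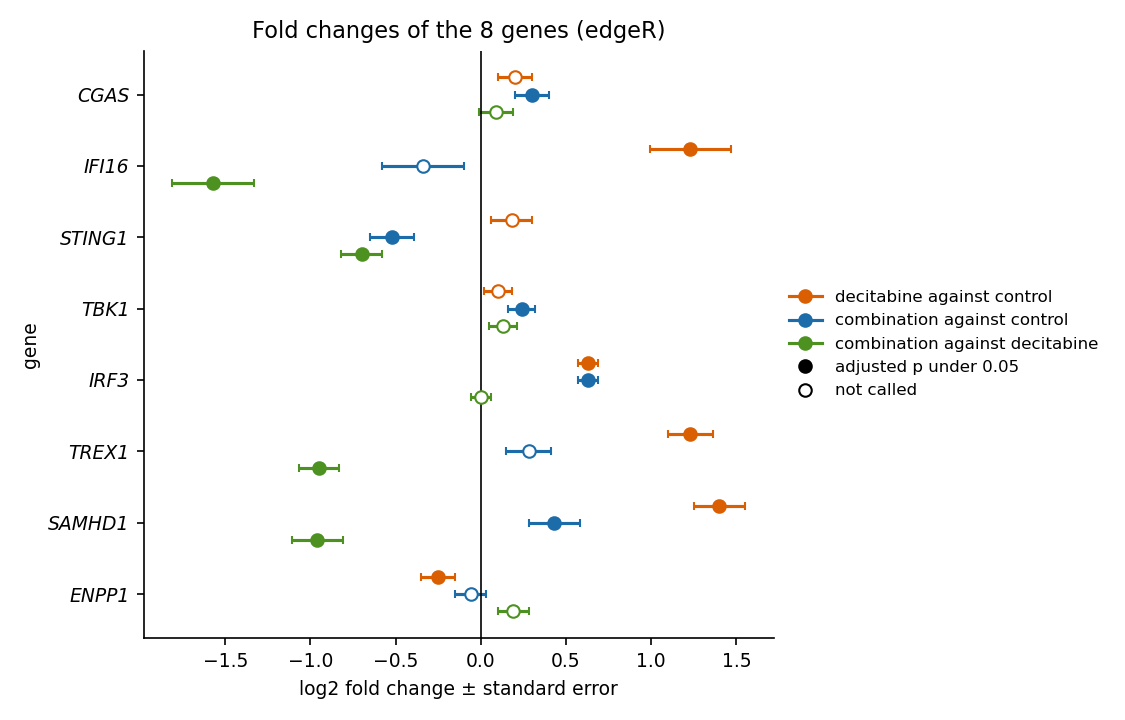
Log2 fold changes of the 8 genes in the 3 comparisons from edgeR, with bars for the standard error. Filled points passed the adjusted p of 0.05 and open points did not. In the comparison of the treatments IFI16, TREX1, SAMHD1 and STING1 lie between -1.57 and -0.70, and the other 4 genes lie between 0.00 and 0.19.

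Levels of different genes were compared per kilobase of the MANE transcript. In the controls IRF3 was the most abundant of the 8 at 62.6 ± 2.05 CPM per kb (SD, n = 3), followed by IFI16 at 33.5 ± 2.96 and SAMHD1 at 21.1 ± 0.78. STING1 at 11.6 ± 1.52 and TBK1 at 11.6 ± 0.96 overlapped, then came TREX1 at 7.26 ± 0.80, CGAS at 5.24 ± 0.07 and ENPP1 at 2.29 ± 0.05. Under decitabine TREX1 stood above STING1 and TBK1, at 17.1 ± 1.18 against 13.2 ± 0.92 and 12.5 ± 0.76 CPM per kb. Under the combination STING1 stood at 8.10 ± 1.43, near TREX1 at 8.83 ± 1.24 and below TBK1 at 13.7 ± 0.45, and the ranges of STING1 and TREX1 overlapped. The length per gene moves these values: with the longest transcript in place of the MANE transcript, TREX1 (6.63) already ranked above TBK1 (5.90) in the controls, IFI16 (54.65) ranked above IRF3 (53.66) under decitabine, and STING1 (5.49) ranked below CGAS (6.44) under the combination.

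Ratios of counts within a library do not depend on the scaling between libraries. The ratio of TREX1 to STING1 counts was 0.339, 0.30 and 0.308 in the controls, 0.72, 0.579 and 0.67 under decitabine and 0.669, 0.509 and 0.495 under the combination. It was higher in every treated library than in every control, by 1.05 under decitabine and 0.81 under the combination on the log2 scale. The ratio of TREX1 to CGAS was 0.481, 0.525 and 0.417 in the controls, 1.126, 0.842 and 0.961 under decitabine and 0.539, 0.398 and 0.475 under the combination. It was higher by 1.04 under decitabine, and under the combination it overlapped the controls (-0.02). The ratio of STING1 to CGAS was 1.42, 1.75 and 1.35 in the controls, 1.56, 1.45 and 1.44 under decitabine and 0.806, 0.782 and 0.958 under the combination. It fell below 1 in the combination libraries alone, a difference of -0.82 from the controls and -0.81 from decitabine. Where groups did not overlap, the exact two-sided permutation test gave p = 0.1, the smallest that 3 against 3 libraries allow, and 0.15 after adjustment over 9 ratio comparisons, so that none can pass the threshold. The uncertain split between TREX1 and ATRIP applies to both ratios that hold TREX1.

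**Figure D3:**
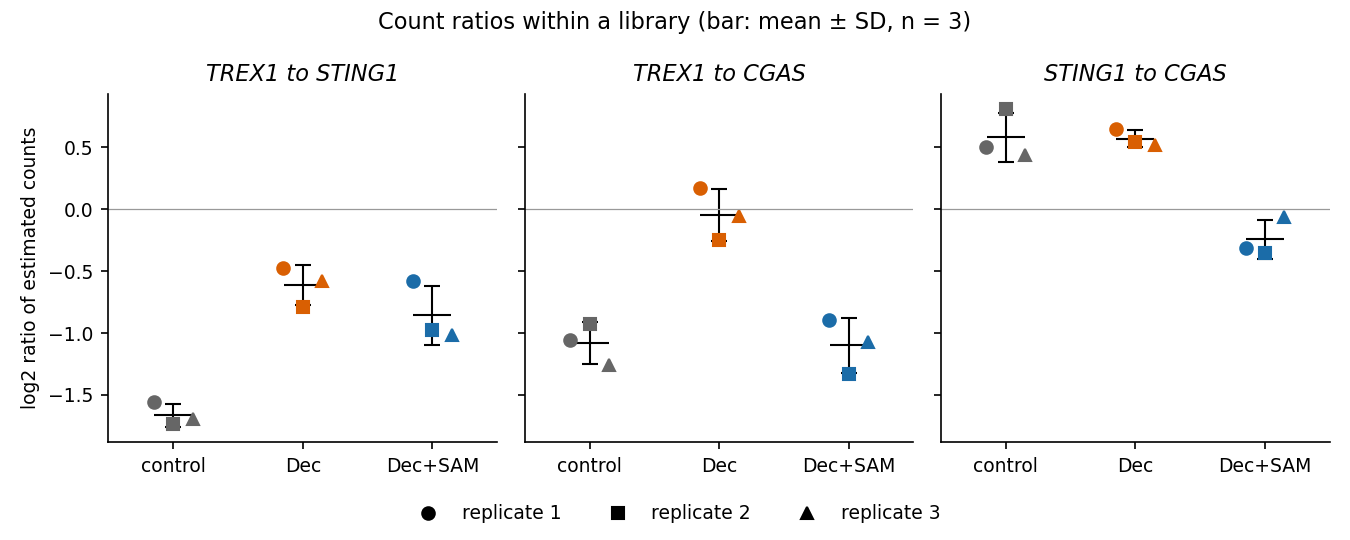
Log2 ratios of estimated counts within each library for TREX1 to STING1, TREX1 to CGAS and STING1 to CGAS, with symbols for replicates 1 to 3 and bars for the mean ± SD of each group (n = 3). A value of 0 means equal counts, and the STING1 to CGAS ratio lies below 0 in the 3 combination libraries and above 0 in the other 6.

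The members were also compared by their profiles, as the root mean square difference of centred log2 CPM over the 9 libraries. The profiles were not scaled, so that genes with small changes come out close even where the changes differ in sign. CGAS and TBK1 were the closest pair at 0.135, and TBK1 and ENPP1 followed at 0.177. TREX1 and SAMHD1 stood at 0.179, and IFI16 and ENPP1 were farthest apart at 0.823. Of the 18531 other genes, the closest to TREX1 were NT5C3A (0.144), IRF1 (0.157) and PSME1 (0.158). The closest to STING1 were MYL5 (0.104), BCL2L13 (0.11) and TMEM263-DT (0.114). These distances share libraries and depth and are a description only.

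The rest of the pathway was represented by 57 genes, of which 48 passed the filter. Under decitabine 17 were higher and 20 lower (median log2 fold change -0.03, against 0.035 for all genes), and under the combination 11 were higher and 17 lower (-0.01, against 0.048). Between the treatments 4 were higher and 10 lower (0.01, against 0.002). Some of these genes, such as AIM2, ZBP1 and CXCL10, passed the filter mainly through their decitabine counts, which favours calls against that group. Of all genes tested, 36.3% were higher and 32.5% lower under decitabine, 35.9% and 31.3% under the combination, and 7.67% and 8.02% between the treatments. Leaving out 1 library at a time gave 0 to 5 higher and 4 to 13 lower between the treatments. The counts fell to 0 higher and 5 lower without decitabine replicate 2, and to 0 and 4 without combination replicate 2. In the combination libraries replicate 3 was the highest of the 3 for 26 of these 48 genes (54.2%).

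Among the other DNA sensors, decitabine raised 2 of 8 tested genes and lowered 6, where 36.3% of all genes were higher and 32.5% lower. AIM2, which assembles an inflammasome on DNA, had 2, 0 and 0 counts in the controls, 62, 84 and 138 under decitabine and 3, 8 and 39 under the combination. ZBP1, a sensor of Z-form nucleic acids, had 0 to 2 counts in the controls, 46 to 72 under decitabine and 0 to 18 under the combination. In both genes combination replicate 3 held most of the counts of its group. Both passed the filter on low counts mainly through the decitabine libraries, so that tests against that group lean towards a difference. Their values are not given. Fold changes of these genes against the near-empty controls rest on few counts. PRKDC, the catalytic subunit of the DNA-dependent protein kinase, fell under decitabine (log2 fold change -0.93 ± 0.12, adjusted p = 1.7e-05) and under the combination (-0.83 ± 0.12, adjusted p = 4.6e-05). LRRFIP1 likewise fell under decitabine (-0.88 ± 0.07, adjusted p = 5.5e-08) and under the combination (-1.01 ± 0.07, adjusted p = 1.5e-08). DDX41, a helicase, was higher under the combination than under decitabine (0.22 ± 0.07, adjusted p = 0.048), a call that was kept only without decitabine replicate 3 or combination replicate 3 and lost without any of the other 7 libraries (0.18 to 0.22, adjusted p = 0.057 to 0.2).

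Of 5 regulators of cGAS, 1 rose and 3 fell under decitabine, beside 36.3% and 32.5% of all genes. TRIM38 rose under decitabine by 1.19 ± 0.14 on the log2 scale (adjusted p = 1e-05) and was lower between the treatments (-1.18 ± 0.14, adjusted p = 6e-04). ZCCHC3, a co-sensor of DNA, fell under decitabine (-0.78 ± 0.10, adjusted p = 6.4e-06) and under the combination (-0.73 ± 0.10, adjusted p = 1.3e-05). TRIM14 fell under the combination against control (-0.92 ± 0.12, adjusted p = 2.5e-05) and against decitabine (-1.1 ± 0.12, adjusted p = 0.00041). BANF1, which competes with cGAS for DNA, was higher under the combination than under decitabine (0.37 ± 0.11, adjusted p = 0.04), although the groups overlapped. This call was lost without control replicate 2 (0.37), decitabine replicate 1 (0.29) or 2 (0.37), or combination replicate 1 (0.30) or 2 (0.34). Among 11 regulators of STING, 4 rose and 2 fell under decitabine, where 36.3% and 32.5% of all genes did. The largest rise was that of USP18, an interferon-induced protease, which measured 13.1, 12.7 and 12.3 CPM in the controls, 106.1, 97.3 and 97.6 under decitabine and 15.6, 20.7 and 44.1 under the combination. Its log2 fold change was 2.98 ± 0.38 under decitabine (adjusted p = 0.00033) and -1.91 ± 0.35 between the treatments (adjusted p = 0.016). The latter was -2.47 without combination replicate 3 (adjusted p = 1.9e-09), and its call was lost without decitabine replicate 1 (-1.86), decitabine replicate 2 (-1.93) or combination replicate 2 (-1.75). TRIM32 fell under decitabine by 0.78 ± 0.09 (adjusted p = 2.8e-06) and under the combination by 0.86 ± 0.09 (adjusted p = 1.2e-06).

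Next to TBK1 and IRF3 stand 7 adaptors, partner kinases and transcription factors, of which 4 rose and 1 fell under decitabine, where 36.3% and 32.5% of all genes did. IRF7, the interferon-inducible relative of IRF3, measured 19.2, 19.4 and 13.6 CPM in the controls, 146, 153.1 and 166.8 under decitabine and 46.9, 50.1 and 92.7 under the combination. IRF7 rose in both treatments (3.16 ± 0.30, adjusted p = 5.4e-05, and 1.86 ± 0.29, adjusted p = 0.00094) and was lower between them (-1.30 ± 0.27, adjusted p = 0.022), whereas IRF3 was not called between them. Without combination replicate 3 the change of IRF7 was 1.48 against control and -1.68 between the treatments (adjusted p = 1.4e-06). The call between the treatments was lost without decitabine replicate 1 (-1.34), 2 (-1.31) or 3 (-1.24), or combination replicate 1 (-1.12) or 2 (-1.15). IKBKE, which encodes the kinase most like TBK1, rose under decitabine by 0.88 ± 0.12 (adjusted p = 1e-05) and under the combination by 0.54 ± 0.12 (adjusted p = 0.00083). It was added to the named genes after its values were seen, for this likeness. AZI2, a TBK1 adaptor, fell under decitabine by 0.24 ± 0.09 (adjusted p = 0.026) and under the combination by 0.62 ± 0.09 (adjusted p = 2.3e-05). The former was 0.01 with library size alone, and its call was lost without control replicate 1 (-0.19) or 2 (-0.23), or decitabine replicate 2 (-0.22) or 3 (-0.23).

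Of the other nucleases, 2 of 7 tested rose and 4 fell under decitabine, where 36.3% and 32.5% of all genes did. TREX2, the paralog of TREX1, was low at a mean of 1.17 CPM in the controls, 1.92 under decitabine and 2.39 under the combination, and rose in both (log2 fold change 0.71 ± 0.26, adjusted p = 0.025, and 1.03 ± 0.26, adjusted p = 0.0027). The former call was lost without control replicate 2 (0.52), control replicate 3 (0.62) or decitabine replicate 3 (0.64). RNASEH2A, the catalytic subunit of ribonuclease H2, fell under decitabine by 1.33 ± 0.09 (adjusted p = 1e-08). It was also lower than in the controls under the combination (-0.95, adjusted p = 2.3e-07). Between the treatments it was higher under the combination (0.38 ± 0.09, adjusted p = 0.011), which was not called without decitabine replicate 2 (0.33) or combination replicate 2 (0.37). Of 6 genes tested for the transport and breakdown of cGAMP, 4 fell under decitabine and none rose, against the same shares of all genes. SLC19A1, a folate carrier that also imports cGAMP, fell from a mean of 58.2 CPM to 16.3 under decitabine and to 17.95 under the combination (-1.84 ± 0.10, adjusted p = 1.3e-09, and -1.70 ± 0.10, adjusted p = 2.9e-09).

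The cytokine genes that IRF3 and its partners switch on were near 0 in the controls, and 4 of 8 passed the filter. IFNB1, which encodes interferon beta, had 0 to 1 counts in the controls, 10 to 27 under decitabine and 0 to 16 under the combination. CXCL10 had 0 to 1, 23 to 24 and 0 to 5 counts. IFNB1, CXCL10 and CCL5 passed the filter mainly through their decitabine counts. Tests of these genes against that group therefore lean towards a difference and are not given. IL6 had 8 to 10 counts in the controls, 96 to 205 under decitabine and 70 to 111 under the combination, and its fall between the treatments was 0.86 ± 0.25 on the log2 scale (adjusted p = 0.036) with overlapping groups. That call was lost without control replicate 1 (-0.86) or 2 (-0.86), decitabine replicate 2 (-0.67) or 3 (-0.74), or combination replicate 1 (-0.72) or 2 (-0.83). It was also lost with voom and limma (-0.8, adjusted p = 0.065) and with only the 6 libraries compared (-0.86, adjusted p = 0.079). CCL5 had 0 to 4.1 counts in the controls, 19.4 to 37.2 under decitabine and 5.4 to 16.9 under the combination. TNF had 0 counts in every control, 3 to 13 under decitabine and 0 to 8 under the combination, and the interferon lambda genes IFNL1, IFNL2 and IFNL3 reached 22 counts at most.

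Sensing of double-stranded RNA, which also ends in TBK1 and IRF3, was set beside DNA sensing with 8 genes, of which 7 passed the filter. Of these, IFIH1, RIGI and MAVS were chosen to be described for their roles after their values were seen. Under decitabine 6 rose and 1 fell (median log2 fold change 0.98, against 0.035 for all genes), where 36.3% and 32.5% of all genes did. Between the treatments 5 were lower and none higher (median -1.0, against 0.002), where 8.02% and 7.67% of all genes were. IFIH1, the sensor MDA5, measured 6.80, 7.75 and 6.42 CPM in the controls, 224.8, 197.7 and 177.5 under decitabine and 34.5, 40.3 and 93.4 under the combination. RIGI, the sensor RIG-I, measured 22.5, 21.2 and 15.4, then 489, 398.6 and 378, and then 59.1, 70.0 and 171 CPM. Their log2 fold changes under decitabine were 4.84 ± 0.46 (adjusted p = 8.4e-05) for IFIH1 and 4.42 ± 0.48 (adjusted p = 0.00019) for RIGI. The other genes of this list called higher were EIF2AK2 (0.73), TICAM1 (0.77), ADAR (0.98) and TLR3. TLR3 had 0 to 4 counts in the controls, 71 to 83 under decitabine and 3 to 35 under the combination. It passed the filter mainly through its decitabine counts, so that its tests against that group lean towards a difference. Its value is not given, but it counts among the 6 that rose, the 5 that were lower and in both medians. Among the DNA sensors CGAS gave 0.20 and did not pass, and IFI16 rose by 1.23. Of the 8 other DNA sensors tested, 2 rose and 6 fell, where 36.3% and 32.5% of all genes did. The 2 that rose were AIM2 and ZBP1, which passed the filter mainly through their decitabine counts. MAVS, the adaptor of IFIH1 and RIGI, fell under decitabine by 0.41 ± 0.08 (adjusted p = 0.00056), where the adaptor STING1 gave 0.18 and did not pass. MAVS was not called with library size alone (-0.17, adjusted p = 0.11). Combination replicate 3 was the highest combination library for all 7 genes tested. Between the treatments IFIH1 gave -1.83 (adjusted p = 0.024) and -2.42 without that library, and RIGI gave -2.08 (adjusted p = 0.024) and -2.71. Both calls were lost without decitabine replicate 1 (-1.74 for IFIH1 and -1.96 for RIGI), decitabine replicate 2 (-1.84 and -2.12), combination replicate 1 (-1.58 and -1.81) or combination replicate 2 (-1.64 and -1.87). The difference between the 2 groups of genes was not tested.

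**Figure D4:**
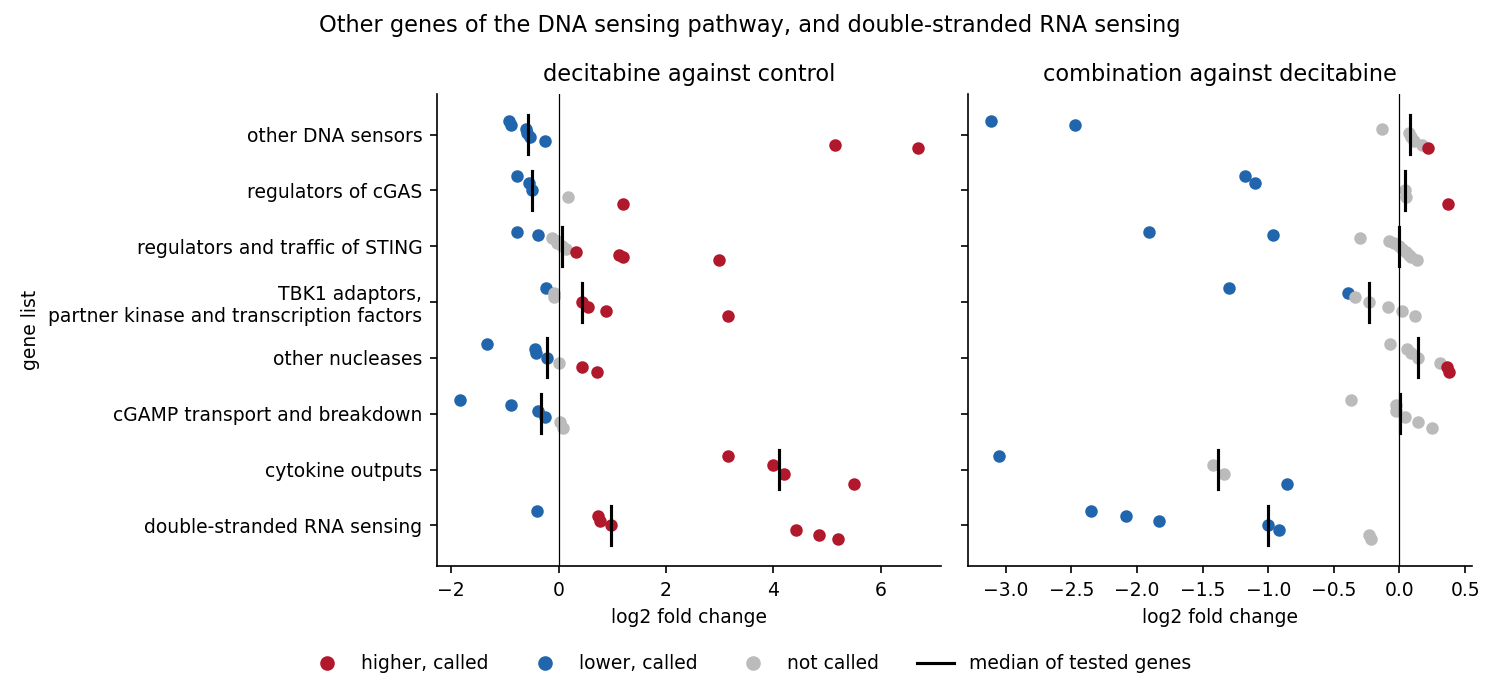
Log2 fold changes (edgeR) of the other genes of the DNA sensing pathway and of double-stranded RNA sensing, by list, under decitabine against control on the left and the combination treatment against decitabine on the right, on separate scales. Each point is a gene that passed the filter, colours mark calls at an adjusted p of 0.05, and the black line is the median of the list, 0.98 and -1.0 for double-stranded RNA sensing. AIM2, ZBP1, IFNB1, CXCL10, CCL5 and TLR3 are plotted although they passed the filter mainly through their decitabine counts. Their points therefore lean towards a difference in both panels, and they count in the medians of their lists.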

How the data were processed

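RNA-seq was analysed in 9 PC-3 libraries. The labels gave the groups and replicates, and the methods of the study gave the doses. The authors trimmed reads with Trim Galore 0.6.4 and counted them with kallisto against GRCh38, per the submitters' processing notes, and deposited estimated counts per Ensembl gene, not normalized. The strand setting and the annotation release are not given in the sources used here. The log2 CPM files that were also deposited were not used.

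Estimated counts were rounded, and 18532 genes that passed filterByExpr were tested in edgeR 4.0.16 (R 4.3.3) with TMM scaling and the robust quasi-likelihood test, 9 libraries in 1 fit, and Benjamini-Hochberg adjustment over all genes tested, with a threshold of 0.05. The study names voom and limma, which were run as an alternative (limma 3.58.1). Other alternatives were DESeq2 1.42.0, its size factors, library size alone, a minimum mean of 10 counts or no filter, a fit of the 6 libraries of a comparison alone, a block for the replicate number, and leaving out each library. The sum of TREX1 and ATRIP counts was added after the data were seen, as were all alternatives for named genes other than the members. Tests of ratios were exact permutation tests.

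The members and gene lists were chosen with earlier results of these data known. All members were named, and from each list the gene with the largest called change in each direction of each comparison, where 1 group averaged 50 counts or more, while cytokine and leukocyte genes were given by counts. Some marker genes are not reported here. Symbols came from GENCODE 44, which matched 60357 of 60617 identifiers. Pairs of libraries within a group were checked for copies over genes with at least 20 counts, and chi-square per degree of freedom was 5.87 to 23.5 in 9 pairs. On simulated data with 2-fold changes in 5 draws, 15827 to 15856 genes tested, the test found 99.6% of those changed for decitabine against control (4.14% false calls), 99.7% for the combination against control (4.68% false) and 99.8% for the combination against decitabine (4.50% false). In the simulation few genes changed, all of them well expressed, the spread was the same for all genes and no library stood apart. Its rates therefore check the code and do not carry over to these data or to smaller changes. Other tools were Python 3.11.15, pandas 2.3.3 and matplotlib 3.10.9.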

Additional observations from a re-analysis of the deposited data

How the results depend on the processing

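Of 24 results for single members, 13 kept their call, or the lack of one, under every alternative. The same held for 387 of 411 alternative values, and no member value with a call changed sign. Among the other genes named, AZI2 changed sign under decitabine with library size alone (0.01, not called). With library size alone, 7 members were higher and 0 lower under decitabine and 0 lower under the combination. Under this scaling the log2 fold changes under decitabine were 0.45 for CGAS, 0.43 for STING1, 0.35 for TBK1 and -0.01 for ENPP1, and those under the combination were -0.30 for STING1 and 0.50 for TREX1. It left 11 pathway genes lower under decitabine, 19 higher under the combination and 2 higher between the treatments. With only the 6 libraries compared, 0 members were lower under decitabine (ENPP1 -0.23) and 2 pathway genes were higher between the treatments. DESeq2 called 0 members lower under decitabine (ENPP1 -0.23), and with no filter TBK1 gave 0.21 against control under the combination and was not called. The sum of TREX1 and ATRIP gave 0.21 under the combination, which was called, and -0.11 between the treatments, which was not.

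Leaving out 1 library at a time, log2 fold changes under decitabine ranged from 0.15 to 0.29 for CGAS and from -0.31 to -0.18 for ENPP1. Under the combination against control they ranged from 0.24 to 0.33 for CGAS, from -0.67 to -0.18 for IFI16, from 0.17 to 0.28 for TBK1, from 0.19 to 0.39 for TREX1 and from 0.20 to 0.54 for SAMHD1. Members lower under decitabine numbered 0 to 1, and under the combination 1 to 4 were higher and 1 to 2 lower, the extremes coming without control replicate 2 (1 higher) and combination replicate 3 (2 lower). Between the treatments, 0 to 5 pathway genes were higher and 4 to 13 lower. The difference in the log2 TREX1 to CGAS count ratio between combination and control, -0.02 with all libraries, ranged from -0.12 to 0.10, with 0.06 without control replicate 2 and 0.10 without combination replicate 2. That in the STING1 to CGAS ratio between decitabine and control, -0.01 with all libraries, ranged from -0.09 to 0.10, with 0.10 without control replicate 2, 0.00 without decitabine replicate 2 and 0.01 without decitabine replicate 3.

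The replicate number as a block changed no call of a member, with 4 higher and 1 lower under decitabine and 4 lower between the treatments. Of the other calls printed, those between the treatments for BANF1 (0.36, adjusted p = 0.059) and RIGI (-2.16, adjusted p = 0.052) were lost under the block. With only the 6 libraries compared, those for USP18 (adjusted p = 0.052), IFIH1 (0.068), RIGI (0.064), BANF1 (0.062) and DDX41 (0.089) were lost, as was that for IL6. The call for DDX41 was also lost with DESeq2 size factors (0.057), library size alone (0.079) and no filter (0.06). That for BANF1 was lost with library size alone (0.052). Deviations of libraries with the same number correlated at 0.036 to 0.233 between decitabine and the combination treatment and at -0.017 to 0.018 between control and decitabine. The labels give a number and no pairing, and the main fit was not paired. These values do not settle whether the decitabine and combination libraries were matched. Each decitabine library correlated best with the combination library of its own number, but at only 0.036 for replicate 2. Deviations from a mean of 3 libraries depend on each other, so that these do not count as 3 separate matches. With 3 libraries per group, and TREX1 at 141.5 to 173.8 counts in the controls, the precision for small changes was limited. Causes of the changed calls were not tested.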
